A study of Homo sapiens with 6 samples.

Results

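The genes described here are 32 that the transcription factor ATF4 is known to control, or that act beside it, together with ATF4 itself. They were taken by gene symbol from the 37923 genes of the deposited tables, where all 32 were found, and were sorted by known role into 11 transcription factors and stress regulators, 10 enzymes of serine, one-carbon and amino acid metabolism, 7 genes of transport (1 of them a lipoprotein receptor and 1 a tRNA exporter) and 4 secreted factors. RNA was sequenced from 3 libraries in a group labelled ENZ and 3 in a group labelled Control, all from cells labelled RKO, a human colorectal carcinoma line. The series design describes the ENZ cells as treated for 48 h with compound A3, a degrader of the histone demethylase LSD1, names the replicates biological, 3 a group, and gives no treatment for Control. Only that design text ties the name ENZ to the compound, and no source says whether replicates came from separate cultures, so the p-values reflect variation among libraries that may be technical.

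Libraries held 26756840 to 30025543 counts in ENZ and 26691289 to 28207612 in Control. The colorectal label was checked against marker genes. Of 13 colorectal line markers, 7 had a mean over 10 CPM in both groups (EPCAM, KRT8, KRT18, VIL1, CD44, VIM and S100A6), LGALS4 lay between 1 and 10 CPM, and 5 were under 1 CPM in both groups (KRT20, CDX1, CDH17, GPA33 and GSTP1). CDX2, also planned as a marker, was not among these 13. KRT20 and CDX1, which mark differentiated intestinal cells, had 0 to 0.0379 CPM (counts scaled to library size) in ENZ and 0 to 0.0366 CPM in Control. Of 11 prostate luminal markers examined, 9 had a mean over 10 CPM in both groups and 0 had a mean under 1 CPM in both. HOXB13 had 191 to 201 CPM in ENZ and 153 to 158 in Control. The list had no common direction. At an adjusted p under 0.05 (edgeR's test) 5 of the 11 were called higher in ENZ and 5 lower, with a median log2 fold change of −0.33. Of all tested genes 20.5% were called higher and 19.3% lower. The colorectal markers were thus mixed, while prostate luminal markers were present in libraries of both groups, so the markers do not bear out the label and the cells are called by their group labels below. Of 9 markers of leukocytes, fibroblasts and endothelium, 7 had a mean under 1 CPM in both groups and 1 a mean over 10 CPM in both. Only 2 of the 9 were tested. In ENZ 1 of these was called lower (log2 fold change −2.66) and 0 higher.

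ATF4 is the main effector of the integrated stress response. When amino acids run short, unfolded protein builds up or mitochondria falter, kinases phosphorylate the initiation factor eIF2, general translation slows, and the ATF4 mRNA is translated more. The protein then raises genes that make serine and asparagine, feed carbon units into folate, import amino acids and, under lasting stress, favour cell death. Because much of this control acts on translation, the level of the ATF4 transcript is not a measure of the ATF4 protein.

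ATF4 binds, as a dimer with C/EBP proteins, to a composite element whose core letters are TGATGNAA, often TGATGCAA. The sequences below are the matches found in the members' own promoters, shown because ATF4 is known to act on some of the genes through this element. RefSeq promoter windows (GRCh38.p14, 250 bases before to 50 after a start site, 300 in all) were at hand for 27 members. At least 1 window held TGATGNAA on either strand in 9 of these 27 genes (33.3%), against 1217 of all 27305 genes with a window (4.46%). Counted by window, since genes can have several, it was 21.4% of the members' 42 windows and 3.62% of all windows. The stricter TGATGCAA, which is contained in the first motif, was in 6 members (22.2%) and in 1.08% of all genes. These genes are known ATF4 targets, some of them through this element, so the share is a description of the members. Each line gives 30 bases 5′ to 3′ on the strand of the gene and marks the matched letters in capitals. In CHAC1, FGF21 and SLC1A4 the motif is on the other strand, so its reverse complement is seen.
ASNS: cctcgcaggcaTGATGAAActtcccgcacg
ATF3: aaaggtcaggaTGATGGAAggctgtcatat
CEBPG: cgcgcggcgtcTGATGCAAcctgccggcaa
CHAC1: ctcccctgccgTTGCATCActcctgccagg
FGF21: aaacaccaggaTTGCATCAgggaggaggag
JDP2: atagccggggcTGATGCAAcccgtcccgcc
SLC1A4: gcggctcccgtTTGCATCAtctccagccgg
SLC1A5: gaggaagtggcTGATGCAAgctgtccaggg
SLC7A1: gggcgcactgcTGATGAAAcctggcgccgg

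The matched stretches lie at chr7:97872458-97872487 (ASNS, minus strand), chr1:212565205-212565234 (ATF3, plus), chr19:33374060-33374089 (CEBPG, plus), chr15:40953251-40953280 (CHAC1, plus), chr19:48755459-48755488 (FGF21, plus), chr14:75427995-75428024 (JDP2, plus), chr2:64989381-64989410 (SLC1A4, plus), chr19:46784893-46784922 (SLC1A5, minus) and chr13:29595663-29595692 (SLC7A1, minus). Distances are given from the start site of the window that holds the motif. In ASNS the motif begins 68 bases before that start site, in CEBPG 42, in FGF21 54, in JDP2 16 and in SLC1A5 97. In ATF3 it begins 191 and in CHAC1 209 bases before it, and in SLC1A4 7 bases before it. In SLC7A1 the motif begins within the transcript, at base 8 when the start site itself is counted as the first base. ASNS, ATF3, CEBPG, JDP2, SLC1A4 and SLC1A5 also had windows at other start sites, and those lacked the letters. In SLC1A5 the window with the motif lies downstream of its other windows. It is inside the gene, which runs from 46774883 to 46788594 on the minus strand. A window without these letters says nothing about binding elsewhere in the gene.

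Of the 32 members, 31 passed edgeR's filter on low counts, and INHBE did not. In the libraries labelled ENZ 23 of the 31 rose and 0 fell at an adjusted p under 0.05 (edgeR's quasi-likelihood test, p-values adjusted by Benjamini and Hochberg's method over all 18581 genes tested). That is 74.2% of the members, beside 20.5% of all tested genes called higher and 19.3% called lower (39.8% in either direction). The members' median log2 fold change, ENZ over Control, was 0.23, and that of all tested genes was −0.01. In 27 of the 31 members (87.1%) every ENZ library lay above every Control library, which was so for 25.3% of all tested genes. Rises of more than 0.5 on the log2 scale were found in 6 members (19.4%), DDIT4, GDF15, JDP2, PCK2, CHAC1 and NUPR1, against 3.82% of all tested genes, and no member reached a log2 fold change of 1. Together the 32 genes took 7586 to 7958 CPM in ENZ and 6253 to 6372 CPM in Control. CPM values here and below are scaled with TMM factors, as in the test, and in RNA from whole cultures a change in the level per cell cannot be told apart from a change in the share of cells that express a gene.

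**Figure D1:**
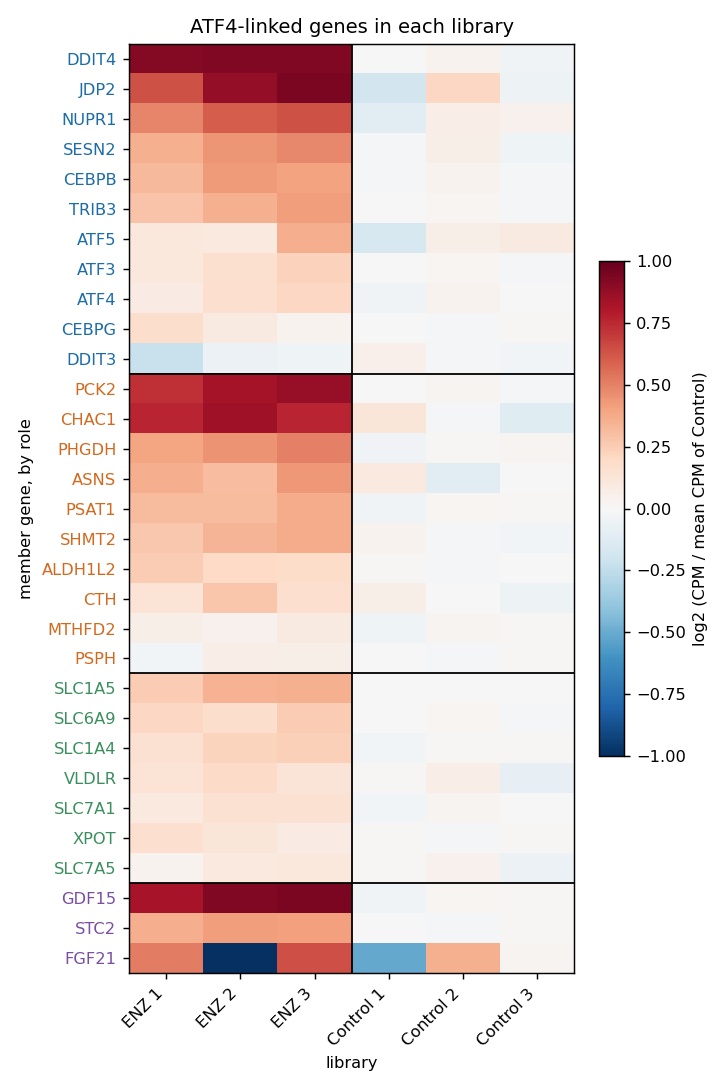
Each row is a tested member and each column a library, ENZ on the left. Colour gives log2 of the library's CPM over the mean CPM of Control, drawn at the limit beyond 1 or −1, and black lines part the roles (regulators, enzymes, transport, secreted). Rows of DDIT4, JDP2, PCK2, CHAC1 and GDF15 are deepest in all 3 ENZ libraries, DDIT3 is below Control in all 3, and FGF21 scatters.

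Among the 11 transcription factors and stress regulators 9 rose and 0 fell (81.8%, beside 20.5% of all tested genes called higher), with a median log2 fold change of 0.35. The ATF4 transcript had 604, 641 and 660.1 CPM in ENZ, against 559, 585 and 572 CPM in Control. The 3 ENZ libraries were above the 3 Control libraries, by a small margin. The log2 fold change was 0.15 ± 0.04 (SE; adjusted p = 0.00204 in edgeR's test), so the rise of the factor's own mRNA was smaller than those of 19 of the 23 members called. On unfiltered log2(FPKM + 1) values the adjusted p for ATF4 was 0.0953 (limma). ATF4 (ENSG00000128272) lies on chromosome 22 from 39519695 to 39522683 (GRCh38, plus strand). Its processed copy ATF4P3 had 41 to 51 counts in ENZ and 37 to 57 in Control, so few reads were counted there. These counts do not show whether reads that match both genes were left out.

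DDIT4, also called REDD1, restrains the growth kinase mTORC1. It had 149.5, 150.4 and 151 CPM in ENZ, against 79.6, 81.1 and 77.3 CPM in Control, and the log2 fold change of 0.92 ± 0.04 was the highest of all members (adjusted p = 5.47e-14 in edgeR's test). SESN2, another brake on mTORC1, which senses leucine, had 90.7, 96.3 and 99.1 CPM in ENZ and 70.3, 73.9 and 69.0 in Control, a rise of 0.42 ± 0.05. Both brakes were thus higher in every ENZ library. DDIT4 lies on chromosome 10 from 72273919 to 72276036 and SESN2 on chromosome 1 from 28259518 to 28282491.

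JDP2, a bZIP repressor that resembles ATF3, was scarce. It had 8.84, 10.5 and 10.9 CPM in ENZ, against 5.00, 6.58 and 5.48 CPM in Control, with a log2 fold change of 0.82 ± 0.11 (adjusted p = 5.93e-06 in edgeR's test). ENZ replicate 1 was the lowest of its group and Control replicate 2 the highest of its own, and the groups did not overlap. The antisense gene JDP2-AS1, which shares 26 bases with JDP2 on chromosome 14, also rose (33, 29 and 38 counts in ENZ and 18, 19 and 16 in Control). NUPR1, a small chromatin-bound stress protein, had 95.3, 103 and 106 CPM in ENZ and 62.8, 70.9 and 69.9 in Control (log2 fold change 0.58 ± 0.05).

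Of the C/EBP proteins that pair with ATF4, CEBPB rose by 0.38 ± 0.04, with 97.0, 104 and 102 CPM in ENZ and 76.2, 79.5 and 76.5 in Control. CEBPG was called only narrowly, with 188, 178 and 171 CPM in ENZ and 167, 165 and 169 in Control (log2 fold change 0.10, adjusted p = 0.0446 in edgeR's test). Its call ended in 11 of the 18 other settings tried, with adjusted p-values from 2.81e-08 to 0.434 over all of them. TRIB3, a pseudokinase that feeds back on ATF4 and CHOP, rose by 0.35 ± 0.04, with 328, 345 and 361 CPM in ENZ and 268, 274 and 266 in Control. ATF3 rose by 0.17 ± 0.05 (74.5, 77.7 and 81.6 CPM in ENZ and 69.1, 70.2 and 69.0 in Control), and lost its call on unfiltered log2(FPKM + 1) values.

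DDIT3, which encodes CHOP, the factor linked to cell death under lasting stress, did not move with the rest. It had 29.4, 33.0 and 33.3 CPM in ENZ, against 35.5, 33.8 and 33.7 CPM in Control, so that every ENZ library lay below every Control library. The log2 fold change was −0.11 (95% confidence interval −0.23 to 0.02; adjusted p = 0.171 in edgeR's test), and it was below 0 and not called in each of the 18 other settings. DDIT3 (chromosome 12, 57516588 to 57521737, minus strand) overlaps MARS1 over 982 bases and MBD6 over 1028 bases, both on the other strand and both called higher, by 0.15 and 0.23 (MARS1 not on unfiltered log2(FPKM + 1) values). The libraries hold no strand, so the DDIT3 count is uncertain. ATF5, a relative of ATF4 under the same kind of translational control, had 15.4, 15.3 and 18.4 CPM in ENZ and 12.8, 14.9 and 15.3 in Control (log2 fold change 0.20, adjusted p = 0.0853 in edgeR's test). It shares 1063 bases with NUP62 on the other strand, which had 3390 to 3791 counts in ENZ, against 404 to 531 for ATF5 itself, and 3329 to 3646 in Control, against 366 to 412. Without ENZ replicate 1 ATF5 was called (log2 fold change 0.24, adjusted p = 0.0269).

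**Figure D2:**
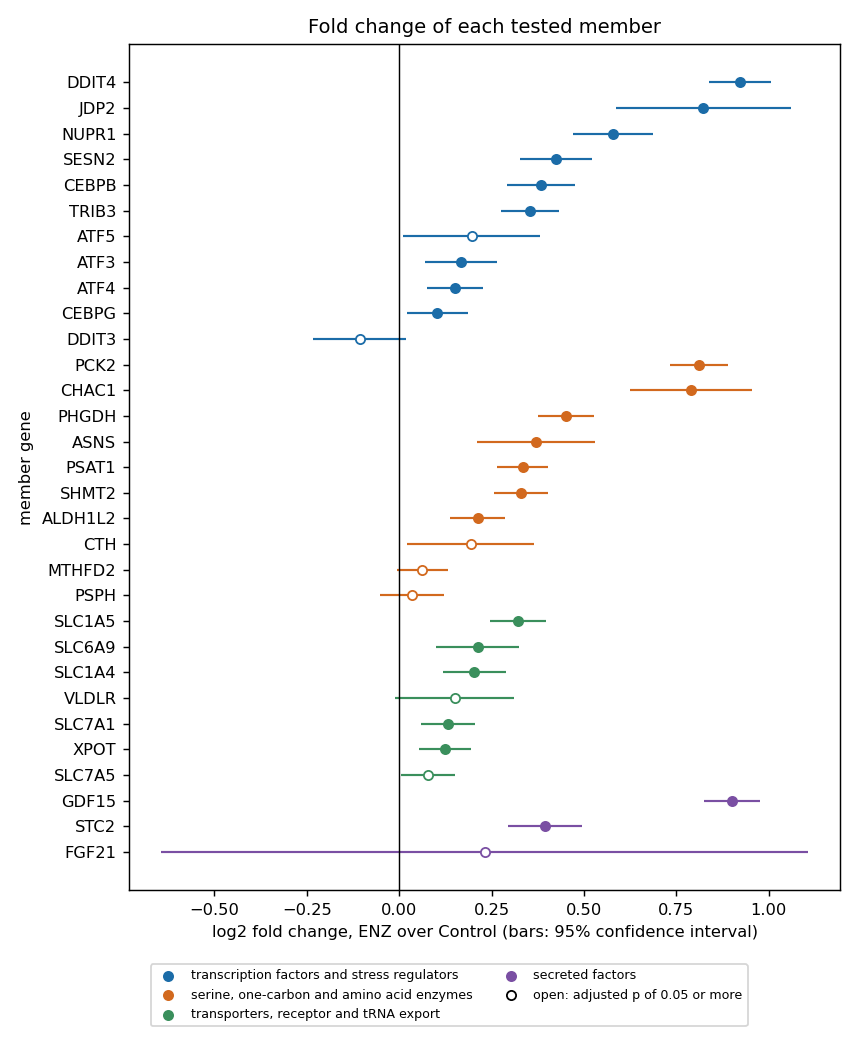
Points are log2 fold changes, ENZ over Control, of the 31 tested members from edgeR, with bars for the 95% confidence interval, in role order. Filled points have an adjusted p under 0.05. Values run from −0.11 for DDIT3 to 0.92 for DDIT4, the transport genes end at 0.32, and FGF21 has the widest interval.

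Among the 10 enzymes 7 rose and 0 fell (70%, beside 20.5% of all tested genes called higher), with a median log2 fold change of 0.33. Serine synthesis runs through 3 enzymes, of which PHGDH and PSAT1 were called and PSPH was not. PHGDH, which opens the pathway, had 365, 378 and 394 CPM in ENZ, against 271, 279 and 283 CPM in Control (log2 fold change 0.45 ± 0.04, adjusted p = 2.58e-09 in edgeR's test). PSAT1, the aminotransferase of the middle step, had 630.2, 628 and 653 CPM in ENZ and 494, 513 and 508 in Control (0.33 ± 0.03). PSPH, the phosphatase that ends the pathway, had 112, 119.9 and 119 CPM in ENZ and 114, 113 and 115 in Control, and the groups overlapped. The PSPH log2 fold change was 0.03 (95% confidence interval −0.05 to 0.12). The interval lies below the estimates for PHGDH and PSAT1, though the difference between the genes was not tested. PSPHP1, an unprocessed copy of PSPH, had 182 to 212 counts in ENZ and 167 to 203 in Control, beside 3162 to 3439 and 3098 to 3272 for PSPH.

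Mitochondrial one-carbon enzymes act downstream. SHMT2, which splits serine into glycine and a folate-bound carbon unit, had 613, 643 and 658 CPM in ENZ, against 521, 503 and 499 CPM in Control (log2 fold change 0.33 ± 0.04). MTHFD2, the next enzyme, had 531, 524 and 542 CPM in ENZ and 495, 519.6 and 515 in Control, close to each other without overlap (0.06, 95% confidence interval −0.01 to 0.13, adjusted p = 0.146 in edgeR's test). ALDH1L2, which oxidises formyl-folate in mitochondria to make NADPH, had 262, 253 and 249.7 CPM in ENZ and 222, 219 and 219 in Control (0.21 ± 0.04). MTHFD2 was called, with a log2 fold change of 0.16, when offsets for GC content and length were fitted.

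PCK2, the mitochondrial enzyme that makes phosphoenolpyruvate from oxaloacetate, rose furthest of the enzymes. It had 476, 508 and 523 CPM in ENZ, against 285, 292 and 282 CPM in Control (log2 fold change 0.81 ± 0.04, 1.76-fold, adjusted p = 1.61e-13 in edgeR's test). PCK2 lies on chromosome 14 from 24094053 to 24110598 inside the span of NRL on the other strand, a gene with 55 to 63 counts in ENZ and 23 to 48 in Control. CHAC1, which breaks down glutathione, was scarcer but rose nearly as far, with 19.3, 20.5 and 19.3 CPM in ENZ and 12.3, 11.3 and 10.5 in Control (0.79 ± 0.08). ASNS, asparagine synthetase and a classical ATF4 target, was also scarce, with 18.5, 17.7 and 19.3 CPM in ENZ and 15.3, 13.3 and 14.3 in Control (0.37 ± 0.08). CTH, the last enzyme of cysteine synthesis, had 12.0, 13.2 and 12.2 CPM in ENZ and 11.3, 10.8 and 10.5 in Control, without overlap but also without a call (0.19, adjusted p = 0.0684 in edgeR's test). CTH was called without ENZ replicate 1 and with GC and length offsets.

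Among the 7 transport genes 5 rose and 0 fell (71.4%, beside 20.5% of all tested genes called higher). Their median log2 fold change was 0.15 and the highest 0.32. SLC1A5, the glutamine transporter ASCT2, had 363, 389 and 390.2 CPM in ENZ, against 306, 305 and 303 CPM in Control (log2 fold change 0.32 ± 0.04, adjusted p = 3.45e-07 in edgeR's test). SLC1A4, a transporter of serine and other neutral amino acids, had 119, 125 and 126 CPM in ENZ and 105, 108 and 108 in Control (0.20 ± 0.04). SLC6A9, the glycine transporter GLYT1, had 40.2, 39.4 and 41.7 CPM in ENZ and 34.8, 35.4 and 34.4 in Control (0.21 ± 0.05). All 3 were higher in every ENZ library, but with GC and length offsets the SLC6A9 call ended (0.10, adjusted p = 0.0859).

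SLC7A1, the arginine and lysine transporter CAT1, rose by 0.13 ± 0.04, with 311, 324 and 324 CPM in ENZ and 286, 297 and 292 in Control. XPOT, which exports tRNA from the nucleus, rose by 0.12 ± 0.03, with 562, 543 and 529 CPM in ENZ and 502, 493 and 503 in Control. XPOT lost its call on the 3 log2(FPKM) settings, and SLC7A1 on unfiltered log2(FPKM + 1) values. SLC7A5, the leucine transporter LAT1, had the highest CPM of all members, with 792, 828 and 831 in ENZ and 779.9, 799 and 744 in Control. Its groups overlapped and it was not called (log2 fold change 0.08, 95% confidence interval 0.01 to 0.15, adjusted p = 0.0795 in edgeR's test). Its direction was not stable, since GC and length offsets gave −0.06, and it was called as a rise of 0.10 without ENZ replicate 1 and without Control replicate 2. VLDLR, a lipoprotein receptor that ATF4 is known to raise, had 14.3, 14.8 and 14.2 CPM in ENZ and 13.1, 13.6 and 12.3 in Control (0.15, adjusted p = 0.132 in edgeR's test). Offsets for GC content and length brought a call (log2 fold change 0.24, adjusted p = 0.0108).

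Of the 4 secreted factors 3 were tested, of which 2 rose and 0 fell (66.7%, beside 20.5% of all tested genes called higher). GDF15, a circulating stress hormone that acts on appetite through the brainstem, had 604, 648 and 656 CPM in ENZ, against 333, 345 and 344 CPM in Control (log2 fold change 0.90 ± 0.04, 1.87-fold, adjusted p = 1.45e-14 in edgeR's test). STC2, a glycoprotein that inhibits the protease PAPP-A, had 59.0, 61.3 and 61.0 CPM in ENZ and 45.8, 45.7 and 46.4 in Control (0.40 ± 0.05). Both were well apart between the groups. GDF15 lies on chromosome 19 from 18374731 to 18389176 and is also a known p53 target.

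FGF21 and INHBE, hormones that ATF4 is known to induce in liver, were close to absent. FGF21 had 17, 5 and 18 counts in ENZ and 8, 14 and 11 in Control, and its log2 fold change of 0.23 had a 95% confidence interval from −0.64 to 1.11. INHBE had 2, 3 and 8 counts in ENZ and 4, 3 and 12 in Control. A change in either was not detectable at this depth, at which a count of 0 would allow up to 0.0999 to 0.112 CPM. FGF21 is the member with the motif in its promoter that was not called. The other 8 such members rose, as did 12 of the 18 members whose windows lacked the letters, beside 20.5% of all tested genes called higher. The median log2 fold change was 0.23 over all 9 members with the motif and 0.27 over the 18 without it.

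Levels of different genes are compared per length, in the FPKM values the authors deposited. By mean FPKM, GDF15 came first in ENZ with 301 ± 11.4 (SD, n = 3) and at rank 3 in Control with 165 ± 2.63. PSAT1 had 285 ± 4.85 FPKM in ENZ and 231 ± 3.90 in Control, where it came first, and ATF4 had 239.8 ± 9.03 and 221 ± 4.18. SLC7A5 (169 ± 3.38 in ENZ and 164 ± 5.65 in Control) and SHMT2 (137 ± 3.95 and 112 ± 2.82) followed in ENZ. In Control the FPKM of GDF15 and SLC7A5 differed by less than the SD of SLC7A5. At the other end, ASNS had 3.73 ± 0.150 FPKM in ENZ and 2.96 ± 0.221 in Control, JDP2 1.59 ± 0.160 and 0.918 ± 0.127, and VLDLR, FGF21 and INHBE were under 1 FPKM in both groups. The amino acid genes were thus spread from among the most to among the least abundant members, with PSAT1 and ASNS far apart.

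**Figure D3:**
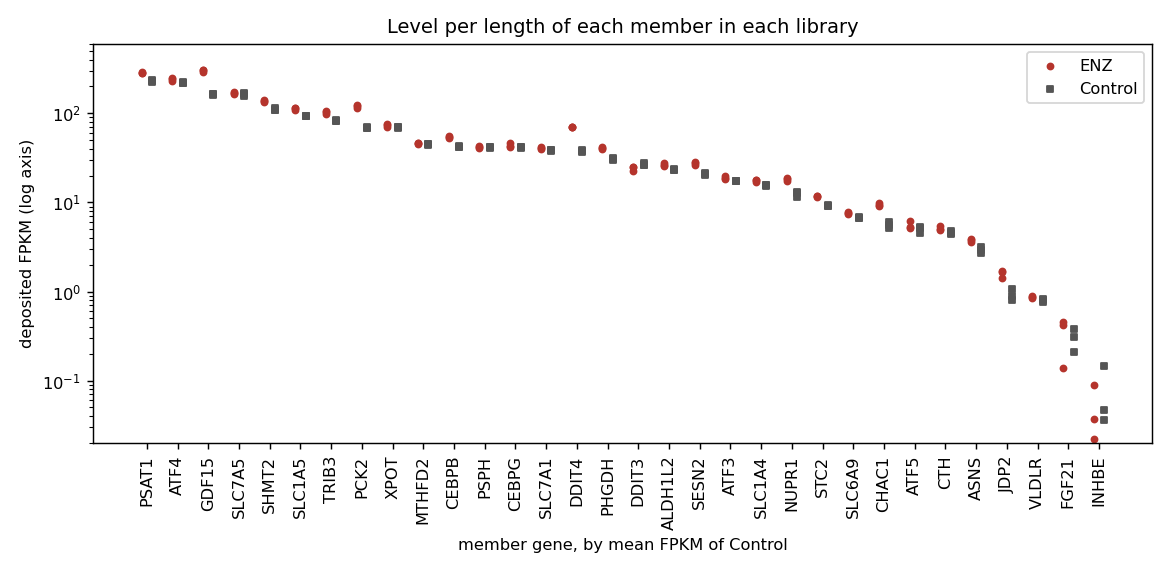
Deposited FPKM of all 32 members in each library on a log axis, ENZ as red circles to the left of Control as grey squares, with genes in the order of their mean in Control. GDF15, PCK2 and DDIT4 stand out from their neighbours in ENZ, and the members run from 301 FPKM on average (GDF15, ENZ) to 0.0493 (INHBE, ENZ).

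Libraries within a group were not equal for these genes. ENZ replicate 1 had the lowest CPM of its group for 20 of the 31 tested members and ENZ replicate 3 the highest for 21. In Control, replicate 3 was lowest for 13 and replicate 2 highest for 17. Without ENZ replicate 1, 25 members rose and 0 fell, with 22.4% of all tested genes called higher. Without ENZ replicate 3, 23 rose and 0 fell, with 17.6% of all tested genes called higher.

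Across all genes, fold changes were higher the more GC the longest GENCODE transcript held, and several of the members that rose most are GC-rich. GDF15 has 64.1% GC, PCK2 61.6%, CHAC1 61.2% and DDIT4 59.7%. The members were therefore set beside genes of the same GC class. Above 60% GC 6 of 7 tested members rose, with 36.2% of all tested genes of that class called higher. Between 50% and 60% it was 9 of 11, with 26.5% of all tested genes, and between 40% and 50% 7 of 12, with 17%. With offsets per library for GC content and length, 25 of 31 members rose and 0 fell, with 26.4% of all tested genes called higher. Under those offsets the log2 fold change was 0.80 for GDF15, 0.85 for DDIT4, 0.70 for PCK2 and 0.72 for CHAC1, all lower than without them, and 0.48 for PSAT1 and 0.50 for ASNS, both higher.

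**Figure D4:**
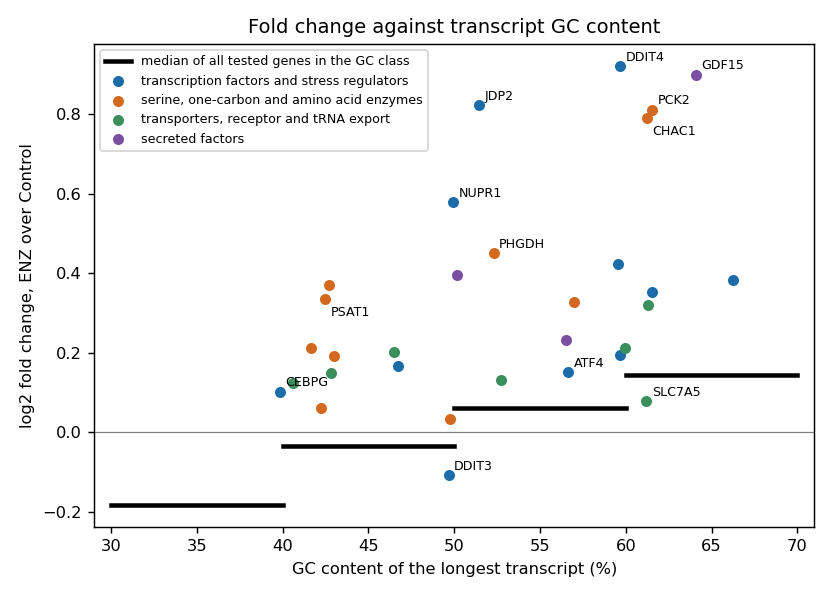
GC content of the longest transcript (percent) against log2 fold change, ENZ over Control, for the 31 tested members, coloured by role. Black bars give the median of all tested genes in 4 GC classes, the outer 2 being open-ended, from −0.18 under 40% to 0.14 above 60%. Most members lie above the bar of their class, and DDIT3 and SLC7A5 lie below theirs.

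Genes upstream and around the members were then read from lists of the same pathways, each shown beside the 20.5% of all tested genes called higher and 19.3% called lower. The 8 genes of the eIF2 kinases and their sensors were mixed, with 2 higher and 2 lower. EIF2AK1, the haem-regulated kinase HRI, which also relays mitochondrial stress, had 378, 385 and 381 CPM in ENZ, against 265, 263 and 259.9 CPM in Control (log2 fold change 0.54 ± 0.03, adjusted p = 2.65e-11 in edgeR's test). Kinase transcripts thus differed in direction. EIF2AK3 (PERK, the kinase of the endoplasmic reticulum) fell by 0.29 ± 0.07, with 23.3, 23.0 and 24.4 CPM in ENZ and 27.2, 28.4 and 31.0 in Control. EIF2AK2 (PKR, which senses double-stranded RNA) fell by 0.23 ± 0.06, with 84.3, 76.0 and 68.5 CPM in ENZ and 88.3, 86.3 and 93.1 in Control. EIF2AK2 had no call with GC and length offsets (−0.06) or without Control replicate 3 (−0.19). IMPACT, an inhibitor of the amino acid sensor GCN2, rose by 0.24, while EIF2AK4, which encodes GCN2 and was named after its values were seen, was not called (0.01, adjusted p = 0.879 in edgeR's test). Activity of these kinases is set by phosphorylation and was not measured.

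Subunits of eIF2, eIF2B and the eIF2 phosphatases had 1 rise (EIF2B5, 0.15) and 1 fall (EIF2S2, −0.12) among 12. EIF2S2 had no call with GC and length offsets (−0.03) or without any 1 of 4 libraries (ENZ replicates 2 and 3, Control replicates 1 and 2), and EIF2B5 none without ENZ replicate 3 or Control replicate 1. With the offsets 6 of the 12 rose and 0 fell, with 26.4% of all tested genes called higher. PPP1R15A (GADD34), the stress-induced phosphatase subunit and a known ATF4 target, had 63.6, 69.9 and 68.0 CPM in ENZ and 59.1, 61.8 and 64.9 in Control and was not called (0.12, adjusted p = 0.0731 in edgeR's test). It was called without ENZ replicate 1 (0.16, adjusted p = 0.00729) and without Control replicate 3 (0.155, adjusted p = 0.0487), and was named after its values were seen.

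The rest of the serine, glycine and folate pathway did not follow the members. Of 26 tested genes 7 rose (26.9%) and 5 fell (19.2%), with a median log2 fold change of −0.02. FPGS, which traps folates in the cell, rose by 0.32 and the folate importer SLC46A1 by 0.26. MTHFD2L, a relative of MTHFD2, fell by 0.33 and MTR, methionine synthase, by 0.21. With GC and length offsets MTHFD2L (−0.10) and SLC46A1 (0.18) were not called, and SLC46A1 was not without ENZ replicate 2 or Control replicate 3.

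Of 11 tested genes listed under the methionine cycle and transsulfuration, by name and not by checked activity, 6 rose (54.5%) and 1 fell. CBS, which starts cysteine synthesis from homocysteine, rose by 0.23 ± 0.04 and AHCYL1 by 0.25 ± 0.04. The largest changes were in scarce genes. MAT1A, the liver form of methionine adenosyltransferase, rose by 0.92 ± 0.24 (1.41 to 1.74 CPM in ENZ and 0.734 to 1.02 in Control). GNMT, which methylates glycine, fell by 0.91 ± 0.13 (3.38, 3.03 and 4.09 CPM in ENZ and 6.57, 7.06 and 6.11 in Control).

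Amino acid transporters outside the members did not rise as a group. Of 27 tested, 5 rose (18.5%) and 7 fell (25.9%). SLC6A6, the taurine transporter, rose by 0.37 ± 0.05, SLC6A15 by 0.26 and the mitochondrial ornithine carrier SLC25A15 by 0.21. SLC43A1 (LAT3), a carrier of large neutral amino acids, fell by 1.03 ± 0.05, with 26.8, 25.3 and 26.6 CPM in ENZ and 53.2, 54.0 and 53.3 in Control. SLC38A4 fell by 3.22 ± 0.10 (2.34, 2.39 and 2.15 CPM in ENZ and 22.1, 20.1 and 21.8 in Control) and the glutamate transporter SLC1A3 by 0.47. SLC38A2 (SNAT2), which amino acid shortage is known to induce through ATF4, also fell, by 0.42 ± 0.04, with 785, 756 and 705 CPM in ENZ and 1015, 987 and 1004 in Control (−0.22 with GC and length offsets, still called). SLC3A2, the heavy chain that SLC7A5 needs at the membrane, had 349, 368 and 391 CPM in ENZ and 345, 352 and 346 in Control and was not called (0.09, adjusted p = 0.0801 in edgeR's test). SLC3A2 was called without ENZ replicate 1 (0.13, adjusted p = 0.0014). SLC38A2 and SLC3A2 were named after their values were seen.

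Proline, aspartate and glutamate enzymes had 5 rises and 5 falls among 17 tested (29.4% each). ASS1, which makes argininosuccinate, rose by 0.65 ± 0.13, BCAT2 by 0.24 and the proline enzyme PYCR1 by 0.24, while BCAT1 fell by 0.37 and glutamine synthetase (GLUL) by 0.29. BCAT1 lost its call with GC and length offsets (−0.16) and without Control replicate 1 or 3. Other genes listed as targets of ATF4 or CHOP had 20 rises (55.6%) and 5 falls among 36 tested, with a median log2 fold change of 0.17. BBC3 (PUMA), a killer protein of the BCL2 family, rose by 0.56 ± 0.05, with a mean of 63.6 ± 2.72 CPM in ENZ and 43.0 ± 0.865 CPM in Control (SD, n = 3 each). SARS1, which charges tRNA with serine, rose by 0.43 ± 0.04 and AKNA by 0.38. TXNIP, which curbs glucose uptake, fell by 0.92 ± 0.05 (33.9, 35.3 and 35.1 CPM in ENZ and 69.4, 65.6 and 62.7 in Control), SESN3 by 0.64 and PMAIP1 (NOXA), another killer protein, by 0.58. BBC3 and PMAIP1, both killers of the same family, thus moved in opposite directions.

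Other bZIP and C/EBP-named genes, which could pair with the members or carry a like name, had 10 rises (34.5%) and 6 falls among 29 tested. DBP, a clock-controlled factor, rose by 0.76 ± 0.08, the AP-1 subunit JUNB by 0.71 ± 0.05 and CEBPA by 0.66 ± 0.18. HLF fell by 0.75, CREB3L2 by 0.45 and CEBPZ by 0.42. CEBPZ is not a bZIP protein in spite of its name, and its call ended with GC and length offsets and without any 1 of 4 libraries (ENZ replicates 2 and 3 and Control replicates 1 and 3).

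**Figure D5:**
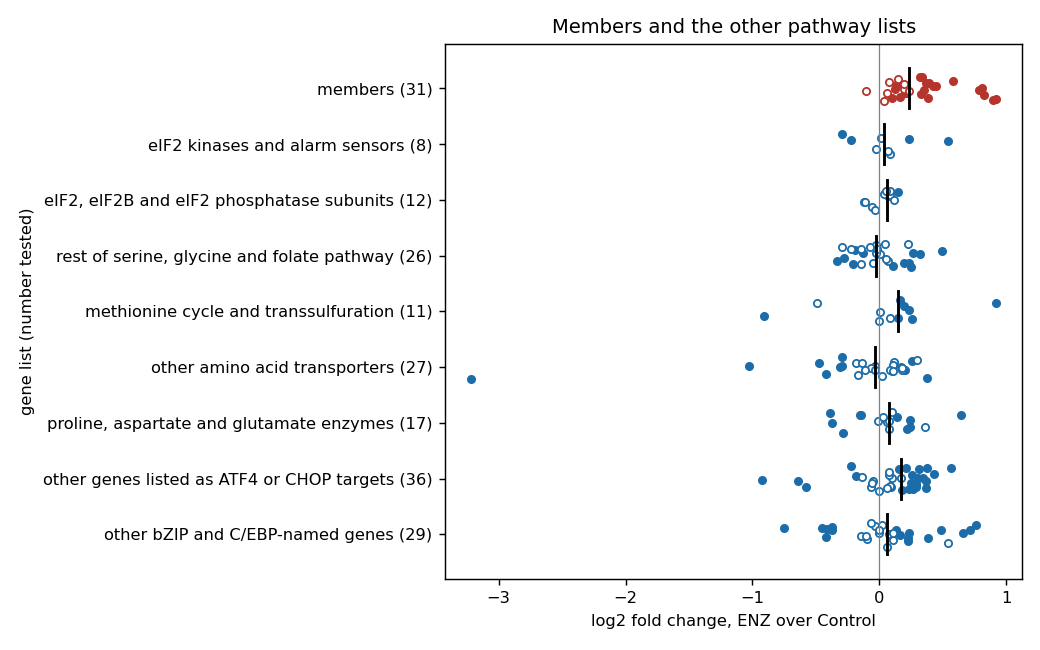
Log2 fold change, ENZ over Control, of each tested gene, by list, with the 31 members at the top in red and the number tested in brackets. Filled points were called and black bars are medians, 0.23 for the members and between −0.03 and 0.17 for the other lists. SLC38A4, at −3.22, is the point furthest left.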

How the data were processed

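Raw counts and FPKM values, 1 of each per gene and library, were deposited for the 6 libraries. Per the labels' protocols, polyadenylated RNA went into a NEBNext Ultra kit, which keeps no strand. Per the submitters' processing notes, the tools were HISAT2 (2.0.5), HTSeq (0.6.1) and DESeq2 (1.20.0), with GRCh38. Their annotation release and strand setting: not given in the sources used here. The deposited FPKM equalled the count over 1 length per gene and the library total with a largest deviation of 6.34e-06 percent where a gene had 10 or more counts. Positions and GC content came from GENCODE 44, which held 37817 of the gene IDs.

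All genes were fitted with edgeR 4.0.16 in R 4.3.3 (TMM factors, default expression filter, robust quasi-likelihood F test, Benjamini-Hochberg adjustment), called at an adjusted p under 0.05. The SE is the absolute log2 fold change over the square root of F. The scripts were tested on simulated data. The alternatives were DESeq2 1.42.0, limma-voom (limma 3.58.1), other scalings and filters, limma on log2 of FPKM plus 1 or 0.1, the replicate block, GC and length offsets (natural splines, 4 degrees of freedom) and each library left out.

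Members and lists were chosen with earlier results of these data known, and the alternatives for counts by role and list were added after seeing the data. All members are described; from each other list the 3 called genes furthest from 0 in each direction are named, except a few that are not reported here. Counting floors cover counting error only.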

Additional observations from a re-analysis of the deposited data

How the results depend on the processing

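Of the 31 tested members, 17 were called higher under each of the 18 alternatives as well, and 3 (DDIT3, PSPH and FGF21) under none. The count of members called higher ran from 18 to 25 over the alternatives, with 0 lower in each. The share of all tested genes called higher also varied. It was 4.71% on unfiltered log2(FPKM + 1) values, where 18 members rose, and 26.4% with GC and length offsets, where 25 rose. All genes called numbered 7393, and 3728 on unfiltered log2(FPKM + 1) values, where the transport genes called higher were 3, against 5; the cause was not tested. Leaving out 1 library at a time gave 5844 to 8258 genes and 22 to 25 members, with 16% to 22.4% of all tested genes called higher. Library totals alone gave 3097 genes higher (16.7% of all tested genes) and 4104 lower, with 22 members higher. TMM gave 3814 genes higher (20.5%) and 3579 lower. With the replicate block 7466 genes and 23 members were called, with 20.6% of all tested genes called higher. The block changed no member's call. Deviations of same-numbered libraries correlated at −0.05 to 0.02, and 0 of 3 ENZ libraries correlated best with their own number, so the numbers were not taken as pairs. Values that changed sign were not called in either setting. PSPH had log2 fold changes of −0.0003 (library totals), −0.0001 (log2(FPKM + 1), filtered and unfiltered) and −0.0002 (log2(FPKM + 0.1)), SLC7A5 had −0.0595 with GC and length offsets and −0.0591 with the block added, and FGF21 ran from −0.0324 to 0.5805 with 1 library left out. EIF2AK4 had −0.0249 (library totals), −0.0231 (log2(FPKM + 1), filtered and unfiltered) and −0.0252 (log2(FPKM + 0.1)), and −0.0155 to 0.0379 with 1 library left out. On unfiltered log2(FPKM + 1) values IMPACT, EIF2AK2, EIF2AK3, EIF2S2, MTR, MAT1A, ASS1, BCAT1, CEBPA, HLF and CEBPZ lost their calls, and SLC6A15, SLC46A1 and EIF2B5 lost theirs on all 3 FPKM settings. FGF21 and INHBE are limited by depth.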
